A study of Mus musculus with 4 samples.

Results

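The genes described here are the microRNA genes with a measurable signal in mouse ureter. They were chosen from the deposited values by symbol and by level. Of 19296 genes on the array, 296 carried a microRNA symbol (Mir with a digit, or Mirlet7) on a probe set assigned to that gene alone. Of these, 94 had a mean over all 4 arrays of at least 6.58 on the log2 scale. That level is the 95th percentile of the means of 1024 olfactory receptor genes, 6.5751, rounded to 6.58. These genes serve as a background because they belong to the lining of the nose. The 94 genes comprise 92 precursor genes and 2 longer host transcripts, Mir100hg and Mir99ahg, whose symbols meet the same rule. Their means ran from 6.61 to 10.37, but levels of different probe sets are not comparable with one another. Just inside the level lay Mir449c (mean 6.61) and Mir688 (6.64), and just outside it lay Mir26a-1 (6.55) and Mir145a, which missed it by 0.0006. The mean of Mir145a, 6.5794, lay above the unrounded percentile, so only the rounding left it out.

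RNA came from whole ureter of 4 male mice of a 129Sv/C57BL6 mix, and each mouse had its own array. The 2 wild type mice (miR-143/145+/+) were 4.5 months old with normal kidneys. The 2 knockout mice (miR-143/145-/-) were 2.5 months old and had hydronephrosis, in which urine held back distends the kidney. The effects of genotype, age and kidney state cannot be told apart in this design, and "knockout" below stands for all of them. In whole tissue, fewer cells of a type and less RNA per cell cannot be told apart either.

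A microRNA is cut from a longer primary transcript. In the nucleus Drosha and Dgcr8 release a hairpin precursor, Xpo5 exports it, and Dicer1 trims it to a short duplex, from which an Argonaute protein keeps a strand. The kept strand finds its target messages mainly through the seed, the bases from position 2 to position 8. miR-143 and miR-145 are known as microRNAs of smooth muscle, the contractile layer of the ureter wall. The array was labelled for whole transcripts, so a probe set on a microRNA gene may read the primary transcript and the precursor, and its value is not the level of the mature microRNA.

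The mature sequences of the genes on which the comparison turned are given first, with their relatives by seed, so that the values of genes with a common seed can be set side by side below. They are from RefSeq (GRCm38.p6), 5′ to 3′, with the seed in capitals.
miR-200b-3p: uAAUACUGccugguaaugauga
miR-200a-3p: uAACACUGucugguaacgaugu
miR-200b-5p: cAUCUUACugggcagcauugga
miR-200a-5p: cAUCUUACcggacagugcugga
miR-205-5p: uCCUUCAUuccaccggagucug
miR-181b-5p: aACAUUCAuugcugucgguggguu
miR-181c-5p: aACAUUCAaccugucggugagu
miR-181d-5p: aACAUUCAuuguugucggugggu
miR-99a-5p: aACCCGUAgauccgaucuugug
miR-99b-5p: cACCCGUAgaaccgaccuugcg
miR-375-5p: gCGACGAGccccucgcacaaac
let-7d-5p: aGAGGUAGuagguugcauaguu
let-7e-5p: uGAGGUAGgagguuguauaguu
let-7i-5p: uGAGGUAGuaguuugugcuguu
The 5p arms of miR-200a and miR-200b share the seed AUCUUAC, while their 3p arms have different ones. The 3 miR-181 arms share ACAUUCA, the miR-99 pair ACCCGUA and the let-7 arms GAGGUAG. Of miR-375 the 5p arm is shown, which is not the arm its known targets pair with.

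The array medians lay between 7.84 and 7.94 over the 4 arrays, and 88 to 91 of the 94 genes were at or above the level on each array. On all 4 arrays 80 of them were. Markers of smooth muscle averaged 11.33 and 11.25 in wild type against 11.56 and 11.38 in knockout (log2, 10 genes), and those of urothelium 11.09, 11.37, 11.70 and 12.06, so both tissue layers were present in all libraries. With 2 arrays a genotype, precision is limited throughout.

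The targeted genes came first, as a check of the labels. Mir145a measured 8.28 and 8.42 in the wild type mice against 4.60 and 5.02 in the knockout mice. Both knockout values lay under the background level, and its signal was lower at least 3.41-fold (limma, adjusted p = 0.00193). Mir143 measured 7.64 and 7.85 in wild type against 6.48 and 6.53 in knockout, at least 2.24-fold lower (limma, adjusted p = 0.0148). For these bounds, each knockout value under the level was replaced by the level. The library labels therefore match the deletion.

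**Figure D1:**
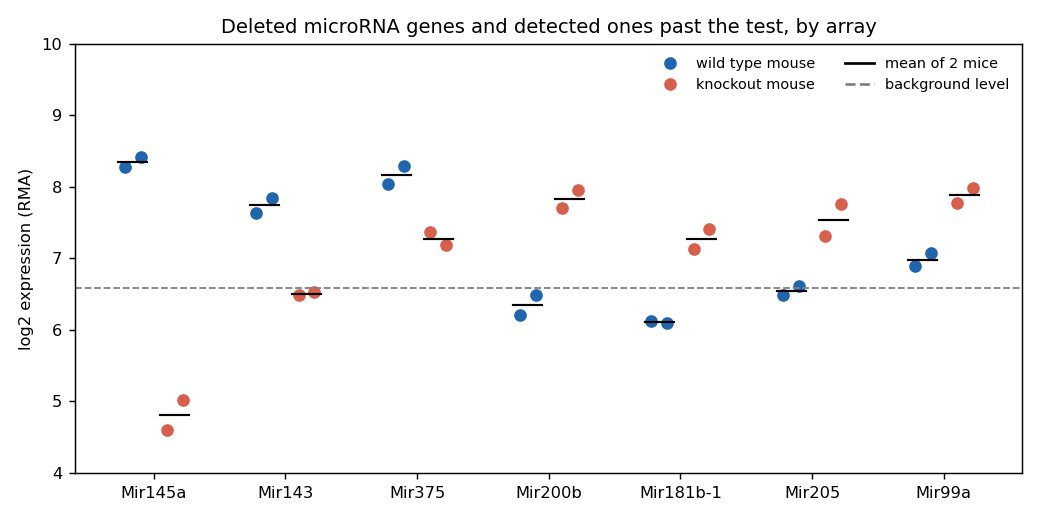
Log2 expression (RMA) of the deleted genes and of the detected microRNA genes past an adjusted p of 0.05, for each wild type mouse (blue) and knockout mouse (red), with the mean of the 2 mice as a black line and the background level of 6.58 dashed. The genotypes do not overlap for any of the 7 genes, and Mir200b and Mir181b-1 lie under the level in both wild type mice.

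Among the 94 genes, 6 passed an adjusted p of 0.05 (limma over all genes), which is 6.38% against 2.38% of all 19296 genes. Higher in knockout were Mir200b, Mir181b-1, Mir205 and Mir99a, 4.26% against 1.90% of all genes, and lower were Mir143 and Mir375, 2.13% against 0.477%. Mir143 is the deletion itself. Mir200b, Mir181b-1 and Mir205 reached the rule's level only through the knockout arrays and Mir143 only through the wild type arrays, so these had to differ and their number is no support for an excess. Of the 86 genes at the level in both genotype means, 2 passed. The calls rested on both wild type mice. Without wild type replicate 1, and likewise without wild type replicate 2, no gene on the array was called. Fits that leave 1 mouse in a genotype have no spread for it. Calls then moved over all genes, so their counts are not compared. Over the single-mouse omissions the difference ran from 1.34 to 1.62 for Mir200b, 1.03 to 1.31 for Mir181b-1 and 0.76 to 1.21 for Mir205. It ran from 0.80 to 1.01 for Mir99a, -1.34 to -1.13 for Mir143 and -1.01 to -0.76 for Mir375. Centring each array on its median gave 4 higher and 4 lower of the 94, and 309 higher and 317 lower of all genes in place of 367 and 92.

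Mir200b and Mir205 are microRNAs of epithelium, known for restraining the Zeb factors that turn epithelial cells mesenchymal. Mir200b (chr4:156055681-156055750, minus strand, GRCm38.p6) measured 6.21 and 6.50 in wild type against 7.70 and 7.96 in knockout. Its difference was 1.48 (SE 0.15, limma adjusted p = 0.0148), at least 2.38-fold higher. Both knockout mice lay above both wild type mice by over 1 on the log2 scale. Mir205 (chr1:193507463-193507530, minus strand) measured 6.49 and 6.61 against 7.31 and 7.76, a difference of 0.99 (SE 0.17, adjusted p = 0.0403), or 1.98-fold higher. Only the first wild type value lay under the level, so this fold is not a bound.

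Mir200a sits beside Mir200b on chromosome 4, on the same strand, at chr4:156054896-156054985. It measured 7.07 and 7.16 in wild type against 7.33 and 7.83 in knockout, a difference of 0.46 (limma, adjusted p = 0.155) that did not pass. The genotypes did not overlap, but the first knockout mouse lay close to the wild type mice. The other cluster of this family, Mir200c and Mir141, lay under the level, with differences of 0.09 and 0.13. Whether the differences of Mir200b and Mir200a differ from each other was not tested. The lncRNA Gm13648 spans both Mir200a and Mir200b in the RefSeq table and Mir205hg spans Mir205, but neither was tested on its own here.

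All 10 urothelial markers were higher in knockout, with no overlap between genotypes, against 28.0% of all genes without overlap in that direction; 1 of them, Trp63, passed the adjusted threshold. Their array means, 11.09, 11.37, 11.70 and 12.06, followed the same order over the mice as Mir200b, Mir205, Mir200a, Mir99a and Mir100hg. The other detected genes higher without overlap, Mir181b-1, Mir505, Mir7-1, Mir107 and Mirlet7d, did not follow it. For all of these genes the order between the genotypes was fixed by the lack of overlap. The part of the urothelial markers in the result was not tested.

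Mir181b-1 (chr1:137966639-137966718, plus strand), whose microRNA is best known from lymphocytes, measured 6.12 and 6.09 in wild type against 7.13 and 7.42 in knockout. The difference was 1.17 (SE 0.14, limma adjusted p = 0.0208), at least 1.62-fold higher. Both wild type mice were under the level. Its cluster partner Mir181a-1 lay under the level on every array, at 3.78 and 3.60 against 4.86 and 3.96 (difference 0.72, adjusted p = 0.151). The blood and lymphoid markers averaged 7.05 and 7.30 in wild type against 6.77 and 6.62 in knockout, but the 7 tested markers did not share a sign: 5 were lower and 2 higher in knockout. Ighm, an antibody heavy chain gene, passed the test (difference -1.22), Alas2 of red blood cells differed by -0.88, and the general leukocyte marker Ptprc by 0.08. Their part in the result was not tested.

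The relatives of Mir181b-1 by seed had negative differences. Mir181d (chr8:84178716-84178787) measured 8.47 and 8.86 in wild type against 8.21 and 8.17 in knockout, a difference of -0.48 (limma, adjusted p = 0.115). Mir181c, next to it, differed by -0.34 (adjusted p = 0.157). Neither passed the test, and the genotypes did not overlap for either.

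Mir99a (chr16:77598936-77599000, plus strand) is known for restraining mTOR. It measured 6.89 and 7.07 in wild type against 7.78 and 7.99 in knockout. The rise was 0.91 (SE 0.13, limma adjusted p = 0.0343), 1.87-fold, with all 4 arrays above the level. Its neighbour Mirlet7c-1 lay under the level in the mean, at 5.67 and 5.03 against 6.62 and 6.24 (difference 1.08, adjusted p = 0.0581), and Mir125b-2, the last of that cluster, differed by 0.12. The host transcript Mir99ahg was read by 2 probe sets that disagreed in sign. The brighter measured 6.86 and 7.06 in wild type against 6.20 and 6.53 in knockout (difference -0.59, adjusted p = 0.0781). The dimmer measured 5.97 and 5.96 against 6.64 and 6.79 (difference 0.75, not tested). No single direction can thus be given for the host.

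Mir99b, the relative of Mir99a by seed, measured 8.07 and 8.30 in wild type against 7.79 and 7.95 in knockout, a difference of -0.31 (limma, adjusted p = 0.198). Mir100hg, the host of the related cluster of Mir100, measured 7.90 and 8.25 against 8.60 and 8.92, a difference of 0.68 (adjusted p = 0.0736). It did not pass, though both knockout mice lay above both wild type mice.

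Mir375 (chr1:74900658-74900721, minus strand), known from pancreatic islets and other secretory epithelia, was the gene that fell apart from the deletion. It measured 8.04 and 8.29 in wild type against 7.38 and 7.18 in knockout. The fall was 0.89 on the log2 scale (difference -0.89, SE 0.14, limma adjusted p = 0.0368), or 1.85-fold, with every array above the level. It ran against the epithelial genes Mir200b and Mir205.

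The 88 genes that did not pass had differences from -0.65 to 0.68, and the smallest adjusted p among them was 0.0616, that of Mir320. Mir320 measured 9.02 and 9.36 in wild type against 8.54 and 8.53 in knockout (difference -0.65). Next in order of p on the lower side, beside Mir99ahg, came Mir326 (difference -0.53, adjusted p = 0.0663), Mir129-1 (-0.56, 0.0750), Mir345 (-0.45, 0.0757), Mir3107 (-0.57, 0.0767), Mir25 (-0.61, 0.0806) and Mir431 (-0.56, 0.0916), all from limma. On the higher side, after Mir100hg, Mir505 measured 8.37 and 8.31 against 9.30 and 8.74 (difference 0.68, adjusted p = 0.0885), with the knockout mice apart from each other by more than the wild type mice. Mir7-1 measured 7.92 and 7.75 against 8.25 and 8.23 (0.41, 0.0991), and Mirlet7d 6.61 and 6.36 against 6.89 and 6.88 (0.40, 0.119).

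Most of the detected microRNA genes measured lower in knockout by a small amount. Of 94, 72 had a negative difference and 22 a positive one, with a median of -0.24, beside a median of -0.02 over all genes (10210 lower, 9086 higher). The genotypes did not overlap, with knockout lower, for 57 of 94 genes (60.6%), against 32.0% of all genes, and with knockout higher for 10 (10.6%), against 28.0%. At an unadjusted p under 0.05, 32 were lower (34.0%, against 13.8% of all genes) and 9 higher (9.57%, against 12.7%). For 76 of the 94 the difference was within 0.5. These counts include the deleted Mir143. Like Mir143, Mir449c, Mir688 and Mir99ahg lay under the level in the knockout mean, so the rule fixed them as lower. Mir181b-1, Mir200b, Mir205 and Mirlet7d lay under it in the wild type mean, so the rule fixed them as higher. The 86 genes at the level in both means were not counted apart. The 202 microRNA genes under the level had a median of -0.01, the olfactory receptors -0.05, and the 11694 other genes within the same range of levels 0.04, a value that turned to -0.04 with median-centred arrays and to -0.02 with a further quantile normalization.

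**Figure D2:**
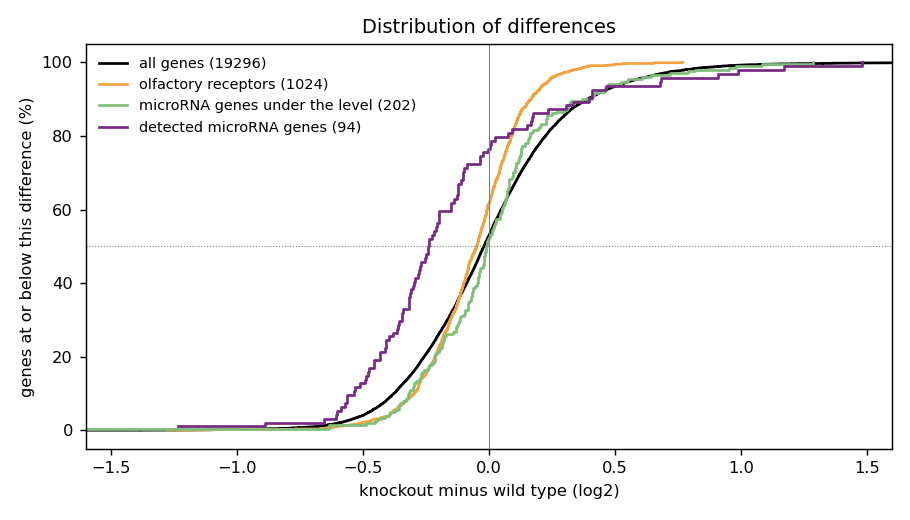
Percentage of genes at or below each difference (knockout minus wild type, log2) for all 19296 genes, 1024 olfactory receptors, the 202 microRNA genes under the level and the 94 detected ones. The curve of the detected genes crosses 50% at -0.24, left of the others, and its upper end holds Mir200b and Mir181b-1.

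The size of this shift, but not its sign, moved with scaling and with single mice. The median of the 94 genes was -0.32 with median-centred arrays (76 lower), where that of all genes was -0.10 (12385 lower), -0.20 with a further quantile normalization (66 lower) and -0.20 with arrays centred on the olfactory receptors (68 lower). It was -0.31 without wild type replicate 1, -0.15 without wild type replicate 2, -0.19 without knockout replicate 1 and -0.27 without knockout replicate 2. The mice of a genotype also differed in the same measure. The array means of the 94 genes were 7.58 and 7.73 in wild type against 7.47 and 7.54 in knockout, and 81.9% of the genes read higher in the second wild type mouse than in the first, against 57.2% of all genes. The gap between the wild type means was thus larger than that between the first wild type mouse and either knockout mouse.

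**Figure D3:**
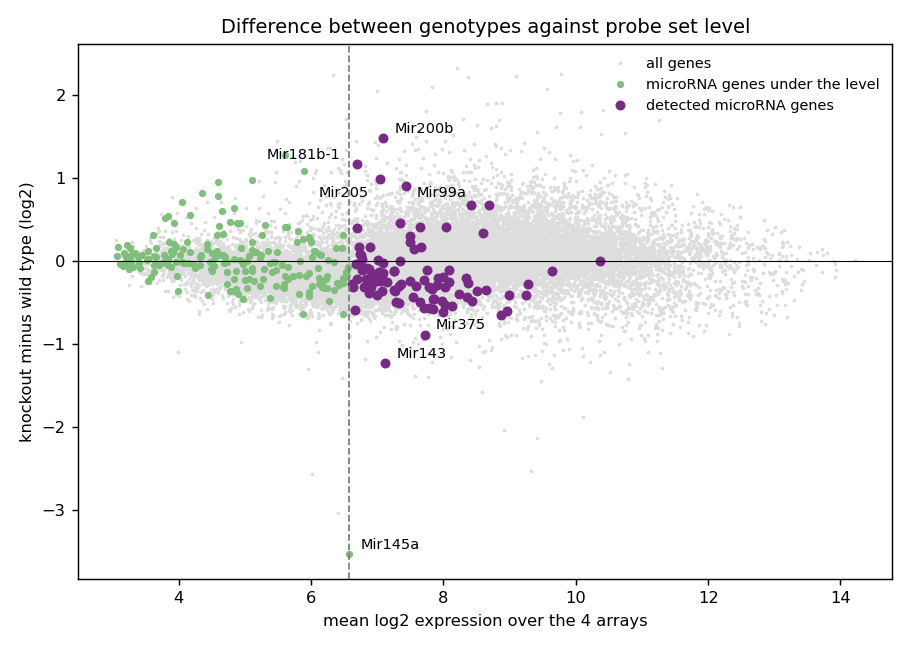
Difference (knockout minus wild type, log2) against the mean log2 expression over the 4 arrays, with all genes in grey, microRNA genes under the level in green and detected ones in purple; the dashed line is the level of 6.58. Most purple points lie a little below 0, and the named genes stand away from them on both sides.

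The largest group from 1 locus was that of the imprinted Dlk1-Dio3 region on chromosome 12, whose microRNAs are expressed from the maternal chromosome. It held 13 of the 94 genes. Of these, 11 were lower and 2 higher, with a median of -0.24, the same as over all 94. Limma called 0 of the 13, and 4 lower and 0 higher had an unadjusted p under 0.05. On the lower side that p was met by 34.0% of the 94 and 13.8% of all genes, and on the higher side by 9.57% and 12.7%. With median-centred arrays 13 were lower, and with a further quantile normalization 9. Without wild type replicate 2 the median was -0.15. The most negative difference was that of Mir431, at 7.84 and 8.15 in wild type against 7.29 and 7.57 in knockout. Mir673 measured 8.17 and 8.64 against 7.74 and 7.99 (difference -0.54, adjusted p = 0.125), and Mir667 9.08 and 9.31 against 8.69 and 8.87 (-0.41, adjusted p = 0.122). Mir485 (0.07) and Mir665 (0.01) were the members with positive values.

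Elsewhere, some groups of genes within 10 kb of one another had differences of 1 sign and others of both. Mir200a and Mir200b were both positive, while Mir181c with Mir181d and Mir191 with Mir425 were negative. Mir25 and Mir93, which lie in an intron of the replication gene Mcm7, measured 8.10 and 8.50 against 7.63 and 7.76 (difference -0.61, adjusted p = 0.0806) and 6.63 and 6.88 against 6.83 and 6.73 (0.02). On chromosome 8 Mir23a, Mir27a and Mir24-2 differed by -0.14, 0.23 and -0.36, and on chromosome 17 Mir99b, Mirlet7e and Mir125a by -0.31, 0.17 and -0.12. Mir191 and Mir425 on chromosome 9 differed by -0.04 and -0.21. Of all these genes only Mir200b passed the test.

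Host genes were looked at because a microRNA inside a gene of the same strand may be made from the transcript of that gene. For 25 of the 94 genes such a host was tested, in 21 host genes. Limma called 0 of the 21, and at an unadjusted p under 0.05 there were 2 higher and 2 lower, against 12.7% and 13.8% of all genes. The median of the hosts was -0.01, with a range from -0.53 to 0.41. The microRNA gene and its host had the same sign in 11 pairs and opposite signs in 14. Mcm7 differed by 0.15 (adjusted p = 0.462), beside -0.61 for Mir25. Igf2, the growth factor gene that holds Mir483, measured 9.48 and 9.86 in wild type against 9.75 and 9.98 in knockout (0.19, adjusted p = 0.476), while Mir483 measured 8.09 and 8.35 against 7.64 and 7.84 (-0.48, adjusted p = 0.0977). Hnrnpk, an RNA-binding protein gene that holds Mir7-1, differed by -0.06, and Pank1, a gene of coenzyme A synthesis that holds Mir107, by -0.53 (adjusted p = 0.106), beside 0.17 for Mir107.

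**Figure D4:**
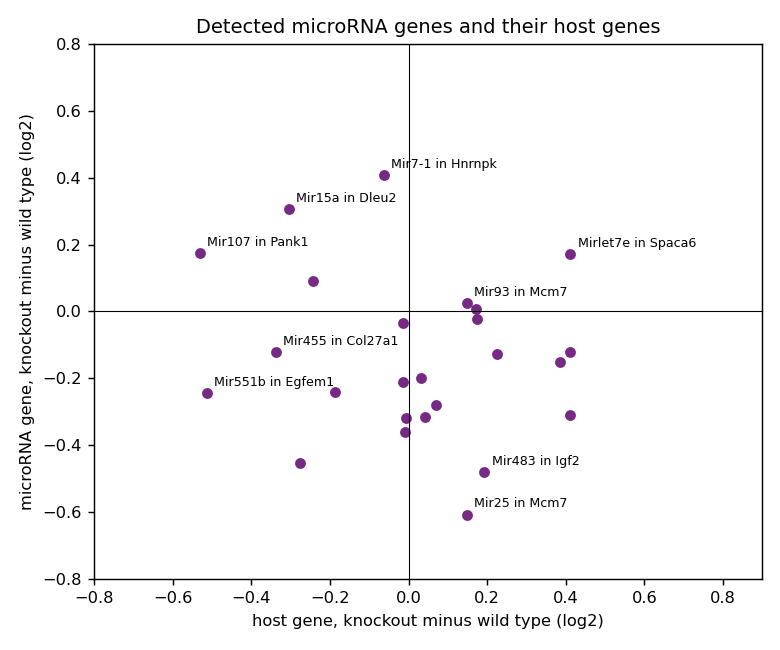
Difference (knockout minus wild type, log2) of each of 25 microRNA genes on the vertical axis against that of its same-strand host gene on the horizontal axis. The points lie in all directions from the origin, with 11 pairs of the same sign and 14 of opposite sign; Mir25 in Mcm7 and Mir483 in Igf2 lie low with hosts a little above 0.

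Mature sequences were matched for 82 of the 94 genes, as 151 arms with 134 distinct seeds. A seed was shared by genes of the set in 14 cases, over 27 genes in 12 sets. Of the 14 seeds, 7 belonged to genes with differences in both directions, 6 to genes that all measured lower and 1 to genes that all measured higher, the 5p seed of Mir200a and Mir200b. The detected let-7 genes, of a family known for opposing growth and held back by Lin28, showed both directions. Mirlet7d differed by 0.40, Mirlet7e by 0.17 and Mirlet7i by -0.41 (7.09 and 7.32 against 6.68 and 6.91, limma adjusted p = 0.126). Of 10 let-7 genes tested regardless of level, 8 were higher and 2 lower (median 0.20), limma called 0, and 4 reached the level on any array. Their median was 0.12 with median-centred arrays, and from 0.12 to 0.29 without single mice. Mir15a (0.31) and Mir497 (-0.31), which share AGCAGCA, also lay on opposite sides. Where separate loci encode the identical mature arm, the differences were close to each other for Mir194-1 and Mir194-2 (-0.49 and -0.37), Mir219a-1 and Mir219a-2 (-0.29 and -0.38), and Mir138-1 and Mir138-2 (-0.24 and -0.13). They were farther apart for Mir365-1 and Mir365-2 (-0.51 and -0.26), which encode the same 3p arm. Probe sets of such copies may share RNA, and the 3 copies of Mir680 differed by 0.41, 0.33 and -0.27 with a wide spread between the wild type mice (Mir680-1 at 7.93 and 6.95).

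**Figure D5:**
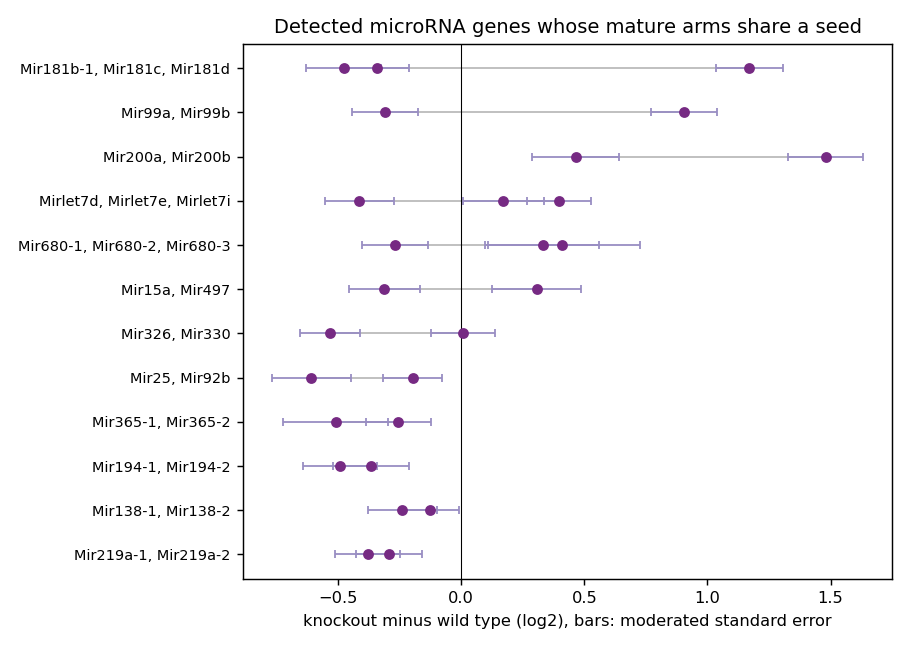
Difference (knockout minus wild type, log2) of detected microRNA genes in the 12 sets whose mature arms share a seed, with bars for the moderated standard error from limma. The Mir181 and Mir99 sets span from below 0 to above 0.9. The sets of Mir194, Mir138 and Mir219a, whose loci encode an identical mature arm, lie close together below 0.

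Lists of microRNAs by cell type gave a further view, all genes tested regardless of level. The level was reached on any array by 4 of 13 epithelial, 6 of 14 smooth muscle, 3 of 8 kidney and 4 of 9 adipose microRNAs. The signs of the others are of values under the background level. Of 13 epithelial microRNAs 11 were higher and 2 lower (median 0.09), and with median-centred arrays 7 and 6; Mir200b and Mir205 passed. The median was 0.05 without wild type replicate 1, 0.22 without wild type replicate 2, 0.22 without knockout replicate 1 and 0.06 without knockout replicate 2. Of 14 smooth muscle microRNAs 6 were higher and 8 lower (median -0.06), and the deleted Mir143 and Mir145a alone passed. Of 8 kidney microRNAs 7 were lower (median -0.27, beside -0.24 over the 94 detected genes) and limma called 0. Without wild type replicate 2, and likewise without knockout replicate 2, 5 were lower and 3 higher, with medians of -0.20 and -0.27. Centring on the olfactory receptors also gave 5 and 3. At an unadjusted p under 0.05, 4 of the 8 were lower, against 34.0% of the 94 and 13.8% of all genes. Mir194-1 and Mir194-2, which encode the same 5p arm and may share RNA, were among the 4. Mir194-1 measured 7.70 and 8.08 against 7.43 and 7.37. The other 2 of the 4 were Mir204 and Mir211, the latter inside the gene Trpm1. The rest of the list as tested was Mir192, Mir215, Mir216a and Mir217. Whether these microRNAs came from kidney cells here was not tested. The kidney markers averaged 6.55 and 7.29 in wild type against 8.61 and 6.76 in knockout, so the first knockout mouse stood apart in them. Of 9 adipose microRNAs 6 were lower (median -0.26) and limma called 0. An unadjusted p under 0.05 was met by 1 higher and 3 lower, against 12.7% and 13.8% of all genes. The median was -0.06 without wild type replicate 2 and -0.12 without knockout replicate 2. Mir365-1, known from brown fat, measured 7.79 and 7.39 against 7.36 and 6.80 (-0.51, adjusted p = 0.184). The adipocyte markers, all 10 lower in knockout, averaged 12.89 and 12.79 against 12.59 and 12.12. Their part was not tested. None of 7 microRNAs of striated muscle reached the level on any array.

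The genes that make and use microRNAs were also examined. Of 42 tested, 33 were higher and 9 lower in knockout, with a median of 0.14 (0.06 with median-centred arrays and 0.07 with a further quantile normalization). Limma called 0 of them, while an unadjusted p under 0.05 was met by 5 higher and 2 lower genes of the 42, which is no more than the 12.7% and 13.8% of all genes. Drosha measured 8.88 and 8.71 in wild type against 9.06 and 8.99 in knockout (difference 0.23, adjusted p = 0.272), and Dgcr8 8.33 and 8.08 against 8.50 and 8.51 (0.30, adjusted p = 0.194). Xpo5 measured 8.80 and 8.77 against 9.03 and 9.06 (0.26, adjusted p = 0.194). Dicer1 differed by 0.12 (adjusted p = 0.513), and Ago2, the Argonaute protein that cuts its targets, by 0.03 (adjusted p = 0.930). The knockout mice lay above the wild type mice without overlap for 28 of the 42 genes, against 28.0% of all genes, and below them for 5, against 32.0%. All genes include many dim ones, while 41 of the 42 reached the level on any array. Of the 11694 other genes in the level range of the detected microRNA genes, 4223 lay above and 3010 below without overlap. Drosha, Dgcr8, Xpo5 and Dicer1 were among the 28, and none of them passed the test. The gene of smallest p among the 42 was a lower one, Lin28a, named here after its values were seen. It measured 7.58 and 7.75 in wild type against 7.02 and 7.22 in knockout (difference -0.55, limma adjusted p = 0.0714).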

How the data were processed

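Expression was measured on 1 Affymetrix whole-transcript array per mouse from 500 ng of total RNA, per the labels' protocols. The authors deposited log2 values, which the submitters' processing notes link to RMA, to R version 2.15.0 and to version 3.12.1 of limma. The sources used here give no genome build. Of 23309 probe sets, 20728 had 1 symbol, and the brightest per gene was kept (19296 genes, no filter). Another 36 probe sets named a microRNA together with another symbol and were not used for the comparison. Genotypes were compared with limma 3.58.1 in R 4.3.3 (lmFit, eBayes), adjusted by Benjamini-Hochberg across the 19296 genes, at a threshold of 0.05; the script was tested on simulated data. SE is the moderated standard error. A gene under the background level on both arrays of a genotype has a fold given as a bound. Sequences, hairpin positions and hosts are from RefSeq tables of GRCm38.p6.

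The detected microRNA genes and all lists were chosen with earlier results of these data known. Named genes were the deleted genes, all that passed, the 10 of smallest p in each direction, clusters, list members, hosts and core machinery. Alternatives were a replicate block, filters, scalings, probe set means, eBayes options, array weights, other levels and leaving out each mouse; centring on olfactory receptors was added after seeing the data. The labels call the mice of a genotype biological replicates. Same-numbered mice did not deviate together (correlation -0.028 over genes), so the numbers do not pair them.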

Additional observations from a re-analysis of the deposited data

How the results depend on the processing

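The 6 genes called among the detected microRNA genes kept their calls under every alternative fit except those that left out a wild type mouse. Over the single-mouse omissions, the number higher ran from 0 to 6 and the number lower from 0 to 4; for host genes both ran from 0 to 1. Mir143 ran from -1.34 to -1.13 and Mir145a from -3.75 to -3.33, and both lost their call without wild type replicate 1 (adjusted p = 0.183 each) and without wild type replicate 2 (0.202 and 0.200). With the replicate number as a block, a pairing that the labels do not give, 6 detected genes were higher and 13 lower. Over all genes that fit called 1164 higher and 758 lower, against 367 and 92 in the main fit. It also called 2 hosts and 1 machinery gene lower. With median-centred arrays 4 detected genes and 1 host were lower, beside 317 of all genes. With the rule's level 0.5 higher, 2 detected genes were higher. The causes were not tested. Probe sets near the background level limit what can be read from dim precursors.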

Other observations

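Among the 202 microRNA genes under the level, limma called 5 higher and, beside Mir145a, 1 lower, against 1.90% and 0.477% of all genes. Apart from Mir145a, the called genes lay under the level on every array, so no fold is given. Mir10a and Mir10b, which lie in Hox clusters and are listed here with endothelium, measured 4.05 and 4.20 against 4.99 and 5.17 (adjusted p = 0.0300) and 3.99 and 3.90 against 4.95 and 4.58 (adjusted p = 0.0490). Mir186 (difference 1.29), Mir18 (0.98) and Mir421 (0.79) were the others that were higher. Mir132 measured 6.16 and 6.23 in wild type against 5.58 and 5.54 in knockout (limma, adjusted p = 0.0463), while Mir212, from the same cluster and above the level, differed by -0.11.

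Several microRNAs shared a probe set with another symbol and were outside the test. The probe set of Gm13648 and Mir429, the third gene of the Mir200b cluster, measured 4.77 and 5.17 in wild type against 6.03 and 6.25 in knockout. That of Mir27b and Aopep measured 5.69 and 6.06 against 7.06 and 6.40, and that of Mir29c and A330023F24Rik 6.12 and 6.17 against 6.76 and 6.96. Hoxc5, chosen after its values were seen, spans Mir615 in the RefSeq table, with its strand not compared; it measured 8.53 and 8.13 against 7.19 and 7.25 (limma, adjusted p = 0.0319), and Mir615 8.34 and 8.52 against 7.98 and 8.10 (difference -0.40, adjusted p = 0.113).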
